A study of Mus musculus with 12 samples.

Results

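Of 103935 union regions of H3K36ac peaks on chromosomes 1 to 19, 255 carried a peak in 3 or more of 6 liver tumour libraries and in at least 1 library of each genotype. They were chosen by the presence of peaks alone, by merging the lists wherever peaks overlapped by 1 bp or more and counting the libraries in each merged region. This is 0.245% of the union regions, and 0.318% reached 3 libraries in any combination. Another 52 regions had 3 LysM-Cre libraries and no Trem2-MKO library, and 23 had the reverse. The tumours came from mice treated with anti-PD-1, an antibody against an inhibitory receptor of T cells, and 3 libraries were made for each of the 2 genotypes. The series describes the tumours as hepatocellular carcinoma. LysM-Cre mice carry a Cre recombinase driven by the lysozyme M gene, which is active in macrophages, monocytes and neutrophils, and Trem2-MKO mice lack Trem2 in myeloid cells. The deposited labels give neither the age of the mice nor how the tumours arose. Whole tumour was ground, so a peak cannot be assigned to a cell type, and fewer cells of a type cannot be told apart from less of the mark per cell.

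H3K36ac is the acetylated form of lysine 36 on histone H3, a residue better known in its methylated form. Acetylation at this position is placed by GCN5-family acetyltransferases and is found mainly at the promoters of transcribed genes, whereas trimethylation by SETD2 marks gene bodies. A region seen in tumours of both genotypes is one where a peak was called with and without Trem2 in myeloid cells.

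The lists held 4627 to 29759 autosomal peaks per library, and 0.511% to 2.20% of the peaks of a list lay in both-genotype regions. A typical member peak was small. Whole fragment counts at the summit were recovered from the fold and p-value of each peak. The median was 12 fragments in all 3 LysM-Cre libraries and in Trem2-MKO replicate 1, for which the exact 95% Poisson interval is 6.20 to 21.0 (counting error only). It was 24 in Trem2-MKO replicate 2 and 26 in replicate 3, whose lists are the shortest and whose backgrounds are the highest. These are amplified fragments, and the absence of a peak does not show the absence of the mark.

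Of the members, 4 (1.57%) overlapped a promoter sequence of the RefSeq table used here (build GRCm38.p6, each 250 bases before to 50 bases after a transcription start). The share was 0.826% of all union regions and 0.761% of single-library regions. Single-library regions were narrower, with a median of 415 bp against 771 bp, and the difference was not tested. They are printed 5′ to 3′ on the strand of the gene, because they are the places where these recurrent peaks meet the sequence that H3K36ac is known to mark. Capitals show matches, on either strand, to any of 6 letter strings with a known role. These were the CCAAT box, the GC box core GGGCGG, the TATA box core TATAAA, the E-box CACGTG, the AP-1 site TGACTCA, and the recognition site CTGGAG of BpmI, the enzyme used after amplification. The windows are chr3:89270521-89270820 (minus strand) for Slc50a1, a sugar transporter gene, and chr7:113369290-113369589 (minus strand) for Btbd10. Those of Chordc1, an HSP90 co-chaperone gene, and Krtap28-13, a keratin-associated protein gene, are chr9:18292017-18292316 and chr1:83060680-83060979 (both plus strand).
Slc50a1: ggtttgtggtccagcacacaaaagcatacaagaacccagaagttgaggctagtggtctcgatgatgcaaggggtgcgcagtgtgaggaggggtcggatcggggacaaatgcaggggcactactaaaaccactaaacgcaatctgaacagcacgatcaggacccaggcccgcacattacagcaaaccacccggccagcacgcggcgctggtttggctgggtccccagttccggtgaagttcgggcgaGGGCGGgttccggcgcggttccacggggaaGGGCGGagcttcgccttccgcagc
Btbd10: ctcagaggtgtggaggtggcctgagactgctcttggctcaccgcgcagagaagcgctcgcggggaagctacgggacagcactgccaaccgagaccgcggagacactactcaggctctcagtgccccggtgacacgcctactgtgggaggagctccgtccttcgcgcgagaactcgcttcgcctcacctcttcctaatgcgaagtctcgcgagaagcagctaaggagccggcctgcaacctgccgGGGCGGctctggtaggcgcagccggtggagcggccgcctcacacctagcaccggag
Chordc1: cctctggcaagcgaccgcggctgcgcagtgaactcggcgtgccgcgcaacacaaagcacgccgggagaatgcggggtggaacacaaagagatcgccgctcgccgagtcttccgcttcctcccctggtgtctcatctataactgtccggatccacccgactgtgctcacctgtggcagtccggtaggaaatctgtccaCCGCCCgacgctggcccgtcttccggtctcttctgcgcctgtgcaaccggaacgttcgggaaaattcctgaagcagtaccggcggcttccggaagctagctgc
Krtap28-13: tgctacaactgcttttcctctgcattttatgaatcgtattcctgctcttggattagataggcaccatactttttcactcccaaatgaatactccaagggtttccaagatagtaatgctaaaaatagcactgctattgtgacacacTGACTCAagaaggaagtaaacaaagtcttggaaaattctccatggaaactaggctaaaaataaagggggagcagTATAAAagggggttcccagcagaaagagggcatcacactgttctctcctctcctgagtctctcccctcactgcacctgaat

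The first 3 of these promoters are rich in CpG, and the Krtap28-13 promoter is not. The GC share was 61.0% for Slc50a1, 66.0% for Btbd10 and 62.7% for Chordc1, against a median of 56.3% over 21263 promoters of protein-coding genes in the table. Krtap28-13 had 42.3% and a single CpG, where the others held 22, 28 and 31. Slc50a1, Btbd10 and Chordc1 each held GGGCGG, the core of the GC box, which 46.2% of all promoters hold. Krtap28-13 held TATAAA and TGACTCA, present in 12.6% and 4.66% of promoters. None of the 4 held the CCAAT box (38.2% of promoters), the E-box (7.84%) or the BpmI site (32.9%). The both-genotype region covered the whole promoter window of Btbd10, 269 bases of that of Chordc1, 232 of Slc50a1 and 90 of Krtap28-13.

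At Slc50a1 the summits of the 3 libraries nearly coincided, within a region of 884 bp of which 307 bases were shared by all 3 peaks. The region (chromosome 3, 89269869 to 89270752, mm10) overlaps the annotated start of Slc50a1 and lies within 1 kb of the 3′ end of the ephrin gene Efna1. Folds over local background were 3.28 in LysM-Cre replicate 1, 3.44 in LysM-Cre replicate 2 and 3.35 in Trem2-MKO replicate 2. Their summits lay within 13 bp of each other, the narrowest spread of all 255 members, and the mean summit lay 64 bases downstream of the start. At Btbd10 (chromosome 7, 113368920 to 113369749) the folds were 3.29 and 4.85 in LysM-Cre replicates 1 and 3 and 2.56 in Trem2-MKO replicate 1. At Chordc1 (chromosome 9, 18292048 to 18292837) they were 3.51 and 3.84 in LysM-Cre replicates 2 and 3 and 2.15 in Trem2-MKO replicate 1. A q-value of 0.01 was reached by none of the 3 peaks at Chordc1 and only by LysM-Cre replicate 3 at Btbd10. At Slc50a1 LysM-Cre replicate 2 and Trem2-MKO replicate 2 reached it. Within its list, the Trem2-MKO replicate 1 peak ranked at percentile 12.8 of fold at Btbd10 and 1.60 at Chordc1. Local backgrounds there were 7.21 and 6.90 fragments, where the lowest of that list was 2.60. Presence in Trem2-MKO at Btbd10 and Chordc1 therefore rests on 1 weak peak each.

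How often regions defined without a library hold a peak of that library was examined by leaving out each library in turn. Regions with a peak of both genotypes among the other 5 libraries held a peak of the left-out library more often than regions of 1 library. The shares were 5.01%, 7.81% and 6.36% for LysM-Cre replicates 1, 2 and 3, against 1.85%, 2.87% and 2.06% of single-library regions. For Trem2-MKO replicates 1, 2 and 3 they were 9.54%, 3.62% and 3.40%, against 2.498%, 0.866% and 0.636%. All 6 libraries went the same way, with a mean difference of 4.16 ± 1.67 percentage points (SD, n = 6, exact two-sided sign-flip permutation p = 0.03125, the smallest that 64 assignments give, 0.0625 after Benjamini-Hochberg adjustment over 8 tests). Regions of both genotypes were wider, with medians of 637 to 672 bp against 410 to 425 bp. When the summit of the left-out library had to lie within 250 bases of the mean summit of the region, so that width did not enter, the difference was 3.28 points (exact sign-flip permutation p = 0.03125). Each library helps to define the regions for the others, so the 6 values are not fully independent. By definition, every both-genotype region that held a peak of the left-out library falls in one of the 255 members. These hits are members counted again, so the p-value is no separate support for their recurrence. Most of the 901 to 1973 regions with both genotypes among the other 5 libraries did not recur in the left-out library. They are a wider set than the 255 members, since 1 library of each genotype sufficed. In every library, regions found only in 2 libraries of 1 genotype also exceeded single-library regions. The excess is therefore not particular to regions of both genotypes.

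**Figure D1:**
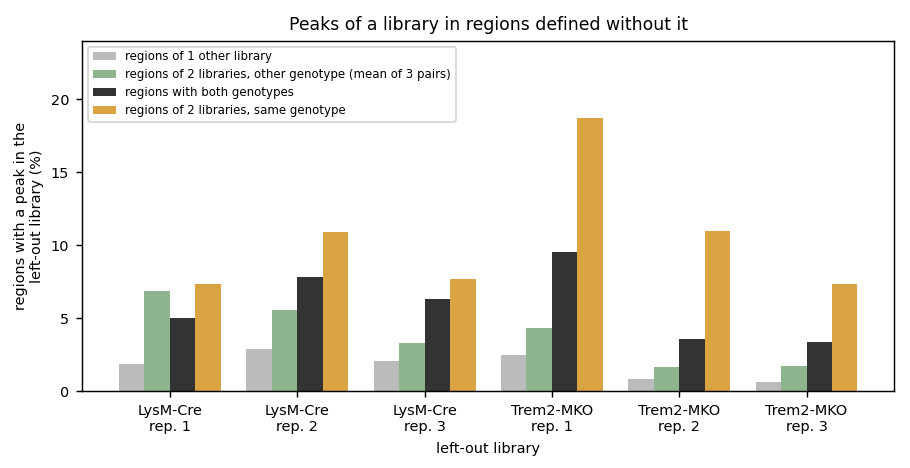
Share of regions, in percent, that hold a peak of the library named on the horizontal axis, for regions defined without that library. Black bars (regions with both genotypes) range from 3.40% to 9.54% and exceed grey bars (regions of 1 other library, 0.636% to 2.87%) in all 6 libraries; ochre bars (2 libraries of the same genotype) exceed green bars (2 libraries of the other genotype, mean of 3 pairs) in each.

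A left-out library met regions shared within its own genotype more often than regions shared within the other. Regions found only in the other 2 libraries of the genotype of the left-out library held its peak in 7.36%, 10.9% and 7.70% of cases for LysM-Cre replicates 1, 2 and 3. Regions found only in 2 libraries of the other genotype did so in 6.84%, 5.58% and 3.29%. For Trem2-MKO replicates 1, 2 and 3 the shares were 18.7%, 11.0% and 7.35% against 4.31%, 1.64% and 1.74%. The difference was 6.61 ± 4.74 points (SD, n = 6, higher in 6 of 6 libraries, exact two-sided sign-flip permutation p = 0.03125, adjusted 0.0625) and smallest in LysM-Cre replicate 1, at 0.515. Without Trem2-MKO replicate 1 or 2 it came to 2.89 or 2.58. Only the 3 libraries of the other genotype then enter, and the exact sign-flip permutation p was 0.25, their floor, and 0.5. The control was pooled, and which inputs it held is not given in the sources used here, so genotype and a control shared within it cannot be told apart in this excess. The same-genotype regions for the Trem2-MKO libraries were few, 23 of 123, 23 of 209 and 23 of 313. For LysM-Cre replicates 1, 2 and 3 the hits were 52, 50 and 48. Apart from changes in merging, the hits of a genotype are the regions of all its 3 libraries, met again from each left-out library. The 6 values are therefore not independent. The p-value takes them as 6 separate results, so no conclusion is drawn from it.

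Libraries with long lists supplied most of the member peaks. Of the 255 regions, 135 had 2 LysM-Cre and 1 Trem2-MKO library, 94 had 1 and 2, and 26 had 4 or 5 libraries. The most frequent set joined Trem2-MKO replicate 1 to LysM-Cre replicates 2 and 3, at 43 regions, and the next swapped LysM-Cre replicate 3 for replicate 1, at 20. Trem2-MKO replicate 1, with 29759 peaks, had 172 in member regions, and Trem2-MKO replicate 3, with 4627, had 102. The part of list length in these sets was not tested.

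The 3 regions in 5 libraries differed from one another in strength. The strongest lay within Olfm3, which encodes a secreted olfactomedin-domain protein (chromosome 3, 114906959 to 114907452). Its folds were 3.71, 4.30 and 4.05 in LysM-Cre replicates 1, 2 and 3, with 3.28 and 3.13 in Trem2-MKO replicates 2 and 3. The 3 LysM-Cre folds all lay above the Trem2-MKO folds. Percentile ranks of fold within each list overlapped, at 74.5, 96.7 and 88.3 in LysM-Cre and 93.1 and 85.5 in Trem2-MKO. The summits held 33, 45, 38, 86 and 93 fragments in that order, far above the medians of 12 to 26. The local background at this place was also high, at 8.15, 9.71 and 8.64 fragments in LysM-Cre. It was 23.0 in both Trem2-MKO libraries, in pileup scaled as given under the processing. The lowest backgrounds of these lists were 2.39 to 5.92. All 5 peaks passed a q-value of 0.01 and the summits spanned 65 bp.

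The region 23.9 kb from Hao2, which encodes a peroxisomal oxidase (chromosome 3, 98919258 to 98919960), had the mirrored order. Folds were 3.29 and 2.47 in LysM-Cre replicates 2 and 3, with 4.16, 3.80 and 3.49 in Trem2-MKO replicates 1, 2 and 3. The region 1091 kb from Nudt12 (chromosome 17, 60103927 to 60104763) had overlapping values, 3.34, 2.92 and 2.69 in LysM-Cre and 2.63 and 3.22 in Trem2-MKO replicates 1 and 3. None of its 5 peaks reached a q-value of 0.01. Folds are set by each library's own depth and background, so these orders are descriptions without a test. Single-library peaks had median folds of 3.22, 3.01 and 3.25 in LysM-Cre replicates 1, 2 and 3. In Trem2-MKO replicates 1, 2 and 3 they were 3.05, 2.63 and 2.68. The geometric mean fold was higher in LysM-Cre in 179 of 255 members.

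Among the 23 regions in 4 libraries, 8 lay in a gene body. The gene for the microtubule cross-linker Mtcl1 (chromosome 17, 66364274 to 66364729) had folds of 3.84 in LysM-Cre replicate 3 and 3.78, 4.69 and 2.93 in Trem2-MKO replicates 1, 2 and 3. Dpy19l4 (chromosome 4, 11288042 to 11288583), of a family of protein C-mannosyltransferases, had 4.81 and 4.50 in LysM-Cre replicates 1 and 2, with 4.28 and 2.08 in Trem2-MKO replicates 1 and 2. At Senp3, a SUMO protease gene (chromosome 11, 69680153 to 69680784), folds were 4.14, 2.92 and 3.27 in LysM-Cre replicates 1, 2 and 3 and 3.61 in Trem2-MKO replicate 1. The genotypes overlapped at Mtcl1 and Senp3 but not at Dpy19l4, where both Trem2-MKO values were lower. The others in a gene body lay in Krtap28-13, Cntnap5a (a neurexin-superfamily gene), Nrg2 (neuregulin-2), Abca8b (a lipid transporter of the ABC family) and Palm (paralemmin), with geometric mean folds of 3.09 to 3.65.

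The 15 others in 4 libraries lay between genes. The strongest, 107 kb from Mdm1 (chromosome 10, 118034436 to 118034923), had folds of 4.35 and 4.72 in LysM-Cre replicates 1 and 3, with 3.67 and 4.05 in Trem2-MKO replicates 2 and 3. It passed a q-value of 0.01 in all 4. Nearest genes of the rest included Fscb (623 kb), Tfap2d (47.0 kb), Dlk1, an imprinted gene re-expressed in some liver tumours (95.9 kb), Prmt6, an arginine methyltransferase gene (35.7 kb), and Aasdhppt (176 kb). Further ones were Gata3 (923 kb), Amy2b (779 kb), Slc39a8 (34.2 kb), Poteg (495 kb), 1700003H04Rik (5.73 kb), Igfbp3 (292 kb), Lrriq3 (387 kb), Adam34l (511 kb) and Zfp982 (14.8 kb). The regions near Gata3, Slc39a8 and 1700003H04Rik had no base shared by all 4 libraries, with summits spanning 986, 571 and 1074 bp. The nearest gene is named for orientation and is not a target.

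**Figure D2:**
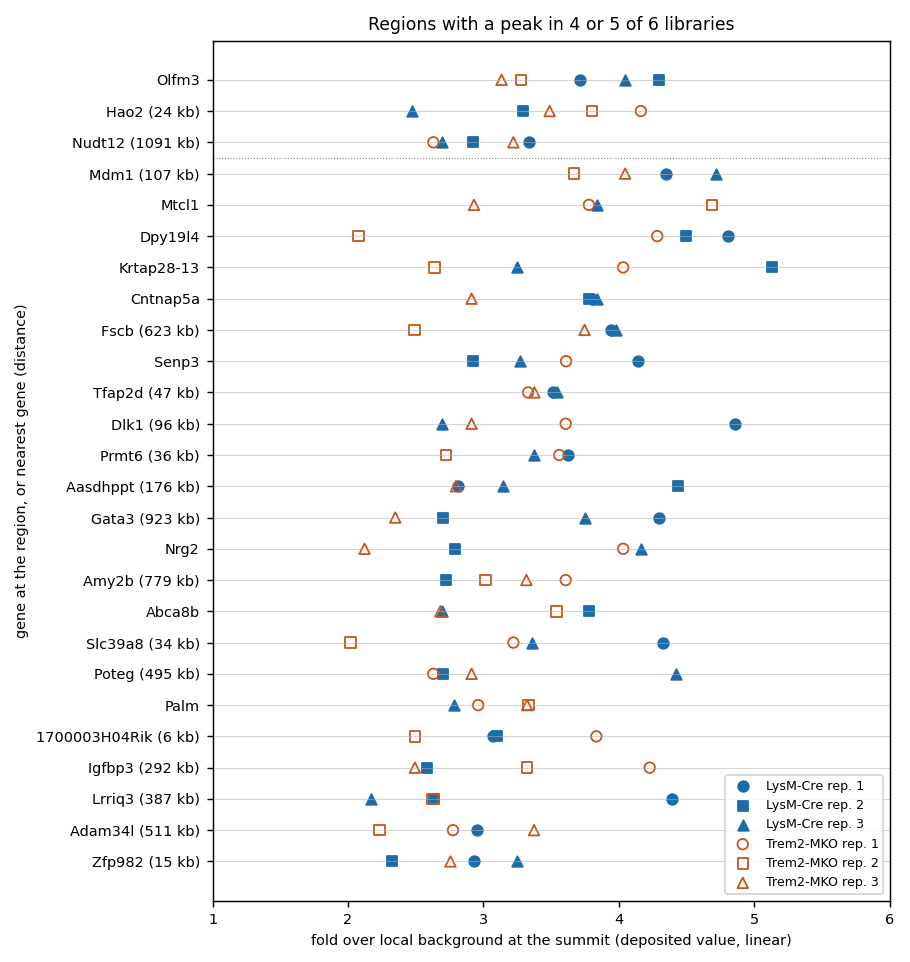
Deposited fold over local background at the summit (horizontal axis, linear) for the 26 regions in 4 or 5 libraries, labelled by the gene that holds the region or the nearest gene and its distance. Filled blue symbols are LysM-Cre and open orange symbols Trem2-MKO libraries. The 3 regions above the dotted line have 5 libraries. Olfm3 among them has its LysM-Cre folds above its Trem2-MKO folds, while their ranks within the lists overlap.

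The strongest of the 229 members in 3 libraries lay in Rsrc1, which encodes a splicing-related protein (chromosome 3, 67181526 to 67182084). Its folds were 4.98 in LysM-Cre replicate 1 and 5.89 and 3.83 in Trem2-MKO replicates 2 and 3, from 16, 44 and 32 fragments. Next was Hpse2, a heparanase-related gene (chromosome 19, 43278973 to 43279471), with 5.31 in LysM-Cre replicate 3 and 4.54 and 3.76 in Trem2-MKO replicates 1 and 2. The third, 65.4 kb from the G-protein gene Gnai1 (chromosome 5, 18199155 to 18199770), had 4.09 and 4.90 in LysM-Cre replicates 1 and 3 and 3.59 in Trem2-MKO replicate 1. The remaining 7 of the 10 strongest lay in Col19a1 or between genes near Slitrk5 (987 kb), Lrrc4c (615 kb), Ndufa4 (1114 kb), Otol1 (571 kb), Ctnnd2 (337 kb) and Abhd17b (4.71 kb), with geometric mean folds of 3.81 to 4.06. The weakest member, near Gm281, had 2.26. The 3 peaks of the region near Slitrk5 shared no base, and their summits spanned 727 bp. Just outside the rule were 2072 regions with 1 library of each genotype, and their 3 highest geometric mean folds were 4.93 near Stfa2, 4.84 near Unc5d and 4.74 in Dym, as high as the strongest members.

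Member peaks ranked above the middle of their own lists in fold. The median percentile was 66.0, 52.3 and 61.5 in LysM-Cre replicates 1, 2 and 3, with 56.1, 60.1 and 71.4 in Trem2-MKO replicates 1, 2 and 3. The genotype means of 59.9 ± 6.996 and 62.5 ± 7.92 (SD over 3 libraries) differed by less than the spread between libraries (exact permutation p = 0.8, two-sided, adjusted 0.914, where 3 against 3 cannot go below 0.1). A q-value of 0.01 was reached by 29.5% to 34.7% of member peaks and by 7.98% to 16.6% of peaks in single-library regions. These values come from the calls that chose the members and carry no test. At the level of regions, 19 members passed a q-value of 0.01 in every called library, 49 in at least 1 library of each genotype, and 94 in none.

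Merging chains peaks, so a member need not have a base that all its libraries cover. In 216 of 255 (84.7%) it did, with a median of 271 shared bases, and in 39 it did not. Members had a median width of 771 bp (431 to 1986), and their summits spanned a median of 249 bp, with 41 within 100 bp and 128 within 250 bp. Regions of LysM-Cre alone spanned 170 bp and those of Trem2-MKO alone 146 bp, a difference that was not tested. Within the members, summits of a LysM-Cre and a Trem2-MKO library lay a median of 139 bp apart (557 pairs), against 134 bp for pairs of LysM-Cre (172) and 114.5 bp for pairs of Trem2-MKO libraries (126). These pairs share regions and libraries and are given without a test.

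Member peaks more often lay where the local background was raised. In single-library regions its median was 2.42 in LysM-Cre replicate 1 and 5.92 in Trem2-MKO replicate 3, equal when rounded to the lowest values of those lists. This background comes from the pooled control or, for many peaks, from a floor shared across the list. It exceeded 2 times the lowest value of the list in 6.82%, 7.89% and 4.41% of member peaks of LysM-Cre replicates 1, 2 and 3, and in 8.72%, 10.9% and 8.82% of those of Trem2-MKO replicates 1, 2 and 3. In single-library regions the share was 1.02% to 2.77%. The order held in all 6 libraries and is given without a test, since background enters the calls. Its part in the recurrence was not tested.

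Altogether 34 members had a raised background in 1 library or more, and 10 had it in every called library. Those 10, singled out after their values were seen, are the regions in Olfm3, Col19a1, Snd1, Crybg1, Phf21a, Casp4, Arhgap22, Impdh1 and Neo1 and the region 8.86 kb from Hjurp, the gene of a centromeric histone chaperone. The extreme was Neo1, a netrin receptor family gene (chromosome 9, 58961632 to 58962096). Its backgrounds were 12.8 and 15.7 fragments in LysM-Cre replicates 1 and 2 and 40.01, in scaled pileup, in Trem2-MKO replicate 2. Its folds were 2.75, 2.46 and 1.92 from 37, 40 and 86 fragments. At Phf21a, which encodes a histone reader (chromosome 2, 92223825 to 92224307), folds were 3.03, 4.05 and 2.54 over backgrounds of 11.2, 10.4 and 17.5. These were in LysM-Cre replicates 2 and 3 and Trem2-MKO replicate 1. Summits of the 10 coincided closely, with a median span of 70.5 bp. In the 221 members with no raised background it was 284 bp.

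**Figure D3:**
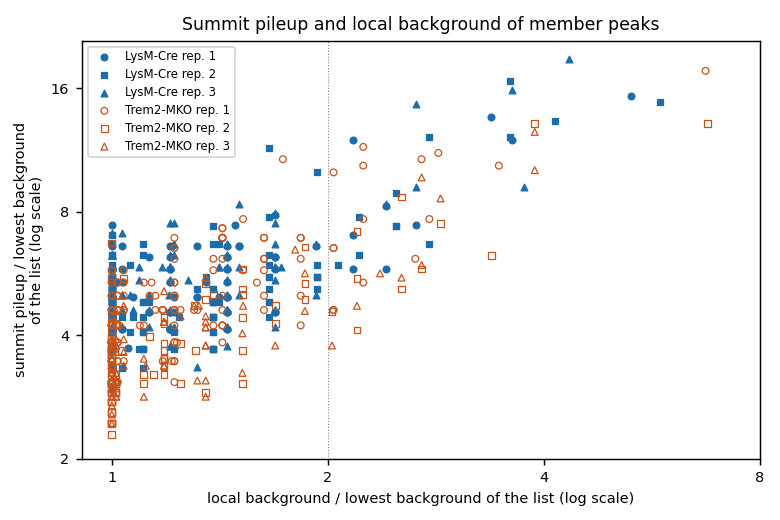
Summit pileup against local background for every member peak, both divided by the lowest background of the list (log scales); blue filled symbols are LysM-Cre and orange open symbols Trem2-MKO libraries. Most peaks sit near 1 on the horizontal axis, and those right of the dotted line at 2 are the 4.41% to 10.9% of member peaks with a raised background.

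Members lay in genes less often than other peaks when all deposited peaks were used. The summit was in a protein-coding gene in 92 of 255 regions (36.1%), where 40.6% of all union regions, and the same share of single-library regions, had it. By library the share of member peaks was 32.6%, 39.5% and 37.5% in LysM-Cre and 37.2%, 38.6% and 29.4% in Trem2-MKO, and that of peaks in single-library regions was 35.9% to 42.4%. The difference of −4.46 ± 2.63 points (SD, n = 6) was below 0 in 6 of 6 libraries (exact two-sided sign-flip permutation p = 0.03125, adjusted 0.0625). The libraries share the member regions, so their values are not independent. The direction turned among stronger peaks. With a −log10 p of 5 or more, 44 members were left and the difference was 8.61 points, and with lists of equal length (37 members) it was 20.5 points.

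Strength and background divided the members in the same way. The summit was in a gene in 11 of the 19 members (57.9%) that passed a q-value of 0.01 in every library, and in 30 of the 94 (31.9%) that passed it in none. It was in a gene in 22 of 34 members (64.7%) with a raised background and in 9 of the 10 with a raised background in every library. Among the 221 without it the count was 70 (31.7%). These splits were made after the values were seen and were not tested.

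Distance from genes, examined after the data were seen, gave the complement. In 88 members (34.5%) the nearest protein-coding gene was over 100 kb away, and the farthest lay 1798 kb away. Over libraries, 35.3 ± 4.51% of member peaks and 29.7 ± 3.40% of peaks in single-library regions were this far (difference 5.61 ± 2.32 points, SD, n = 6, higher in 6 of 6, exact two-sided sign-flip permutation p = 0.03125, adjusted 0.0625). Without LysM-Cre replicate 1 the difference was 1.29 points, without Trem2-MKO replicate 3 it was 3.33 and without Trem2-MKO replicate 1 it was 9.27. With lists of equal length it was −6.22 points. Genes longer than 500 kb held 20 members, among them Gpc5 (a glypican), Pde4d (a phosphodiesterase), Cntn5, Sgcz, Sntg1 and Cdh18. The share of member peaks in such genes, 7.57 ± 2.22%, differed from the 7.67 ± 0.446% of single-library peaks by less than the spread (difference −0.0917 ± 2.42 points, n = 6, exact two-sided sign-flip permutation p = 0.96875, adjusted 0.96875). Under the stricter p limit it was 3.99 and with lists of equal length 8.71 points (exact sign-flip permutation p = 0.03125 for each).

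**Figure D4:**
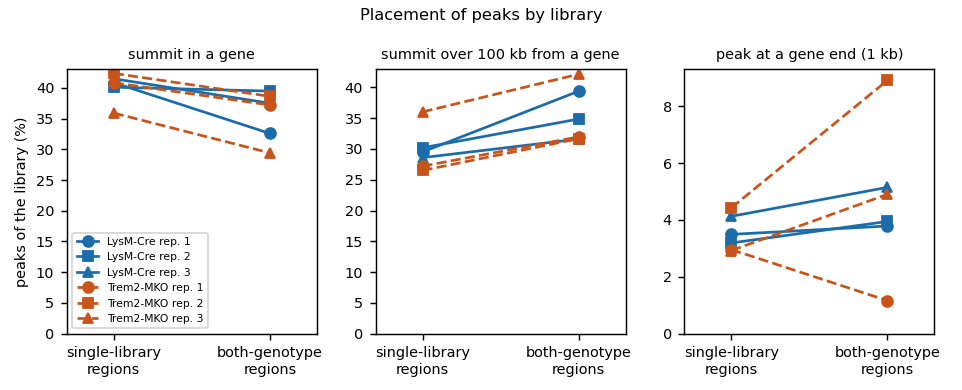
Percent of the peaks of each library with the summit in a gene, with the summit over 100 kb from a gene, and with the peak within 1 kb of a gene end, for single-library and both-genotype regions; each line is 1 library (solid blue LysM-Cre, dashed orange Trem2-MKO). All 6 lines fall in the first panel and rise in the second, and 5 of 6 rise in the third.

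Gene ends held 12 members (4.71%), where 3.50% of all union regions and 3.41% of single-library regions overlapped a window of 1 kb around either end of a gene. By library, 3.79%, 3.95% and 5.15% of member peaks of LysM-Cre and 1.16%, 8.91% and 4.90% of those of Trem2-MKO lay there. The difference from single-library peaks was 1.12 ± 2.07 points (SD, n = 6, above 0 in 5 of 6 libraries, exact two-sided sign-flip permutation p = 0.25, adjusted 0.4). It was −1.50 without Trem2-MKO replicate 2 and 5.14 without Trem2-MKO replicate 1. Without Trem2-MKO replicate 3 it was 0.192. The share was 4.29 ± 0.743% in LysM-Cre and 4.99 ± 3.87% in Trem2-MKO (SD over 3 libraries), a gap smaller than the spread (exact permutation p = 0.8, two-sided, adjusted 0.914). The regions of LysM-Cre alone had 7 of 52 at a gene end and those of Trem2-MKO alone 4 of 23, which was not tested against the members.

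The 12 gene-end members marked 13 genes, 0.0629% of 20665 autosomal protein-coding genes. By the strand of the RefSeq table, 5 of the genes had the region within 1 kb of the transcription start: Slc35f4, Krtap28-13, Slc50a1, Chordc1 and Impdh1. Impdh1 encodes an enzyme of guanine nucleotide synthesis. At Impdh1 (chromosome 6, 29215828 to 29216283) folds were 3.15 in LysM-Cre replicate 2 and 2.51 and 2.12 in Trem2-MKO replicates 2 and 3. For 7 genes the region lay within 1 kb of the 3′ end: Wdhd1 (a replication factor), Uvssa (transcription-coupled repair), Efna1, Eomes, Zfp979, Usp10 (a deubiquitinase) and Myh9 (non-muscle myosin). Adgre1 had no strand in that table. Gene ends are the outer ends of each annotated gene, so the promoter region of Btbd10, 1.78 kb from such an end, was not counted. The highest single fold was at Wdhd1 (chromosome 14, 47239718 to 47240241), 5.56 in LysM-Cre replicate 1, with 3.29 and 2.62 in Trem2-MKO replicates 2 and 3.

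Among the gene-end members, those at Adgre1, Eomes and Zfp979 had no base shared by all their libraries. Adgre1, which encodes the macrophage surface protein F4/80, had a region at its lower-coordinate end (chromosome 17, 57358042 to 57358939). Folds there were 2.55 in LysM-Cre replicate 2 and 3.28 and 2.02 in Trem2-MKO replicates 2 and 3, with summits up to 509 bp apart. Eomes, a T-box factor of NK and effector T cells, had a region just beyond its 3′ end (chromosome 9, 118486386 to 118487998). Its folds were 2.98 in LysM-Cre replicate 3 and 3.62 and 2.76 in Trem2-MKO replicates 1 and 2, and the summits lay up to 1056 bp apart. At Adgre1 and Eomes the LysM-Cre value lay between the Trem2-MKO values.

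From 12 lists of genes typical of the cells of a liver tumour, of chromatin enzymes and of synaptic adhesion, with 255 distinct autosomal genes in all, 1 gene had a member at its end and 5 in the body, while any union region lay in the body of 160 of them. For all autosomal genes, 0.455% had a member and 51.5% any union region in the body. At that share a list of this length holds a member rarely, so the counts of 0 that follow are no result about these genes. Hepatocyte genes had 0 of 26, liver tumour genes 0 of 14, T and NK cell and checkpoint genes 0 of 30, and B cell and neutrophil genes 0 of 10 each. Endothelial and stellate cell genes had 0 of 12 each, cholangiocyte genes 0 of 9, ubiquitous genes 0 of 18, and enzymes and readers of H3K36 and acetylation 0 of 37. Macrophage and TREM2 pathway genes had 1 of 34, which is Adgre1. The list of long synaptic adhesion genes had 4 of 48, among them Cntnap5a, Cntn5 and Cdh18. All 48 of these long genes had some union region in the body.

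Cntnap5a (chromosome 1, 116392760 to 116393533) had 3.80, 3.78 and 3.84 in LysM-Cre replicates 1, 2 and 3 and 2.91 in Trem2-MKO replicate 3. At Cntn5 (chromosome 9, 9985307 to 9986353), a contactin gene, folds were 2.89 and 3.54 in LysM-Cre replicates 1 and 3 and 3.88 in Trem2-MKO replicate 1. At Cdh18, a cadherin gene (chromosome 15, 22815173 to 22815812), they were 2.70 in LysM-Cre replicate 2 and 2.67 and 3.33 in Trem2-MKO replicates 1 and 3.

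Chromosome 3 held 50 of the 255 members (19.6%), where it held 11.3% of all union regions. It took a larger share of member peaks than of single-library peaks in every library: 23.5%, 18.4% and 20.6% against 9.78%, 10.0% and 16.6% in LysM-Cre replicates 1, 2 and 3. In Trem2-MKO replicates 1, 2 and 3 the shares were 21.5%, 22.8% and 12.7% against 9.54%, 14.03% and 5.72%. Chromosome 3 was picked after its count was seen, so no test is given. The regions of LysM-Cre alone had 9 of 52 there and those of Trem2-MKO alone 1 of 23. Chromosome 14 followed with 11 members at 1.42 times its share of union regions, and chromosome 13, with 4, had the lowest ratio at 0.446. Of the 50 on chromosome 3, 16 lay in a gene and 13 were over 100 kb from one. Members were scattered, with a median of 2536 kb between midpoints to the nearest other member on the chromosome, and 8 had another within 100 kb. The closest were 2 regions with midpoints 2.59 kb apart. Their edges lay 24.4 kb and 26.8 kb from Col11a1, a collagen gene.

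**Figure D5:**
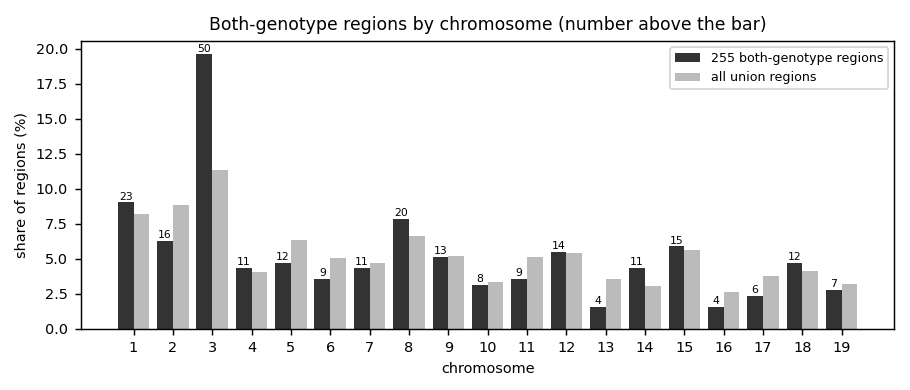
Share of the 255 both-genotype regions (black, number above the bar) and of all union regions (grey) on each autosome, in percent. Chromosome 3 stands out with 50 regions, 19.6% against 11.3%.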

How the data were processed

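H3K36ac ChIP-seq was deposited as 1 narrowPeak list for each of 6 immunoprecipitates, and the 6 inputs of the 12 samples were not analysed here as libraries. Per the labels' protocols, tumour was fixed with formaldehyde, sheared, immunoprecipitated, amplified over the whole genome and cut with BpmI before library preparation, which can copy fragments unevenly. Reads were handled with MACS2, Picard, SAMtools, Bowtie2, deepTools and Trimmomatic on mm10, per the submitters' processing notes, whose versions are not given. File names of the lists state duplicate removal, a pooled control and a p limit of 0.01. Each deposited list gives the authors' integer score, their fold (a ratio to the local background), −log10 p-value and q-value per peak and the summit offset.

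Gene positions came from a RefSeq table of GRCm38.p6 (21887 protein-coding genes, 20665 on chromosomes 1 to 19), the assembly that mm10 names; exons and UTRs were not assigned. Promoter sequences were matched by position, and 21263 promoters of 17492 protein-coding genes were used. Merging, permutation tests and the recovery of summit fragments used Python 3.11.15 with numpy 2.4.6, pandas 2.3.3 and scipy 1.17.1, and were tested on simulated lists. Fragments k and background b at a summit were solved from fold = (k + 1)/(b + 1) and the Poisson p-value. In Trem2-MKO replicates 2 and 3, k was first multiplied by 0.9035 and 0.798. There b is in this scaled pileup and not in whole fragments. All member peaks were solved. Read totals were not used.

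Regions named are all in 4 or more libraries, the 10 strongest by geometric mean fold in 3 libraries, all at gene ends or listed genes, and the 3 strongest on each side of the rule. One region that this rule names is not reported here. The members, gene lists and tests were chosen with earlier results of these data known. The labels number replicates without tying each to a mouse, although the series counts 3 mice per genotype, so p-values measure the spread between libraries. Alternatives were peak thresholds, list length, overlap, gene windows, leaving out libraries and a replicate block. Sequence outside promoters was not analysed here, since no genome was used.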

Additional observations from a re-analysis of the deposited data

How the results depend on the processing

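The number of regions found in both genotypes depended on the lists. It was 44 under the stricter p limit (−log10 value of 5 or more), 21 under the q limit (−log10 value of 2 or more), 37 with lists of equal length, 26 for 4 or more libraries, and 98 to 169 when 1 library was left out (98 without Trem2-MKO replicate 1, 118 without LysM-Cre replicate 2). It was 216 to 256 under the other settings. Held-out sharing of both-genotype regions exceeded that of single-library regions under every setting run, by 3.28 to 8.26 points, and by 3.93 to 5.32 when 1 library was left out, where an exact permutation over 5 libraries cannot go below p = 0.0625. The same-genotype excess was 5.85 to 21.3 points, and 2.58 to 10.5 when 1 library was left out; only 3 libraries then enter, the exact permutation p was 0.25, their floor, or 0.5 without Trem2-MKO replicate 2, and the call was lost.

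The share in gene bodies turned under the stricter p limit (8.61 points, p = 0.09375), under the q limit (16.8) and with lists of equal length (20.5), all by exact sign-flip permutation. It missed 0.05 with peaks cut around the summit (−3.62), an overlap of 100 bases (−4.52), a base common to all libraries (−4.86), without chromosome 3 (−4.41) and with chromosomes weighted (−3.30), and ran from −7.19 to −1.57 when 1 library was left out. The gene-end share passed 0.05 under the stricter p limit (4.63) and with equal lists (8.27), turned under the q limit (−1.10), was 0.0656 with windows of 2.5 kb, and ran from −1.50 to 5.14 when 1 library was left out. The share over 100 kb from a gene turned under the first 3 settings (−0.362, −0.703 and −6.22). The share in genes over 500 kb, near 0, turned to 3.99, 1.99, 8.71, 0.725, 0.274, 1.31 and 0.225 under the thresholds, equal lists, cut peaks, 100 bases, common base and without chromosome 3, passing 0.05 at 3.99 and 8.71, and ran from −3.56 to 1.999 when 1 library was left out.

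The genotype difference in fold rank (LysM-Cre minus Trem2-MKO, −2.60) turned under the q limit (6.49), was −20.7 with equal lists (exact permutation p = 0.3) and ran from −9.14 to 4.98 when 1 library was left out. That in the gene-end share (−0.698) turned under the stricter p limit (1.51), the q limit (2.78), equal lists (0.216) and windows of 2.5 kb (0.821), and ran from −2.84 to 0.917 when 1 library was left out. With the replicate number as a block the exact permutation p was 1.0 for both, at the same values (−2.60 and −0.698), where 3 pairs cannot go below 0.25; the lists gave no check that the numbers pair the libraries. Common base, chromosome 3 and weighting were chosen after seeing the data, as was the summit distance. With about 12 fragments at a summit, a missing peak is weak evidence of a missing mark.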
